A study of Bos taurus with 30 samples.

Results

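The most abundant polyadenylated transcripts of the bovine cervix were described in 30 Limousin heifers, with 1 library per heifer. Counts of each library were divided by the library's total and scaled to a common library total, as CPM, and the 93 transcripts with a mean of at least 1000 CPM over the 30 heifers were taken. They are 93 of 28054 transcript IDs in the tables, and 0.411% of the 22621 IDs with a count in any heifer. Every heifer carried a vaginal CIDR device (controlled internal drug release) with 1.94 g of progesterone for 8 days. Each was injected with 0.5 mg of an analogue of prostaglandin F2α on the day before the device came out. Tissue was taken at slaughter from 6 stages. The first pair followed device removal by 12 h (CIDR+12h, n = 6) and by 24 h (CIDR+24h, n = 6). The remaining 4 were timed from onset of oestrus: at onset (Oestrus, n = 4), 12 h later (Oestrus+12h, n = 4), 48 h later (Oestrus+48h, n = 5) and 7 days later (Luteal, n = 5). For Oestrus+12h and Oestrus+48h the written protocol has the group sizes the other way round, 5 and 4, and the sample labels were used. No untreated heifers were among the samples, so each stage is a stage of a synchronised cycle. Whole tissue was used, and in such samples fewer cells of a type and less RNA per cell cannot be told apart.

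As background, the cervix is a canal of collagen-rich connective tissue and smooth muscle, lined by an epithelium that secretes mucus. Oestrogen near oestrus and progesterone in the luteal phase are known to change its stiffness and its mucus. In most tissues a small number of genes, such as those for structural, secreted or protein-synthesis proteins, supply a large part of the messenger RNA. Gene names are not paired with the IDs in the tables, and the reference table used here matched 0 of the 93 IDs, so no gene, pathway or cell type is named for any of them and the tissue could not be checked against its markers. Transcript lengths were not used either. A CPM is therefore a share of the reads, which grows with length as well as with the number of molecules, and an order of transcripts by CPM is an order of read shares.

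Library totals ranged from 5434853 to 19628122 counts. The smallest count of any member in any heifer was 376, for which counting error alone is 5.16%, which is small beside the differences between heifers given here. Animal numbers with 2 digits before the hyphen belong to 3 heifers (CIDR+12h replicate 5 and Oestrus replicates 3 and 4), and the sources used here do not say what the digits mean. The main comparisons that use Oestrus heifers are also given without these heifers.

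The 93 transcripts together held 26.6 ± 4.55% of a library (SD, n = 30), from 18.02% in Oestrus replicate 4 to 37.1% in CIDR+24h replicate 4. The 10 highest members alone held 10.997 ± 3.75%, from 4.85% to 20.8% in the same heifers. Between 327 and 1037 transcripts were needed to reach 50% of a library's counts, and again the fewest were in CIDR+24h replicate 4 and the most in Oestrus replicate 4. Of these heifers, the one with the larger share in the members thus drew its counts from fewer transcripts. The factors of the trimmed mean of M values (TMM) rescale libraries for such differences in composition. They had their extremes in the same heifers, lowest in CIDR+24h replicate 4, at 0.791, and highest in Oestrus replicate 4, at 1.28. Between these the factor did not follow the share strictly. It was 0.954 at a share of 23.3% in CIDR+12h replicate 3 and 1.14 at 25.9% in Luteal replicate 3.

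By stage, the share of the members was lowest at Oestrus. The 4 Oestrus heifers had 22.8%, 25.5%, 21.0% and 18.02%, and the 5 Luteal heifers had 26.6%, 31.8%, 25.9%, 26.9% and 34.6%. Every Oestrus heifer therefore lay below every Luteal heifer. The shares were 24.7 ± 2.51% at Oestrus+12h (SD, n = 4), 26.8 ± 3.63% at Oestrus+48h (n = 5), 28.5 ± 5.00% at CIDR+12h (n = 6) and 26.9 ± 5.54% at CIDR+24h (n = 6), and each of these stages overlapped with Oestrus. The difference between the means of Oestrus and Luteal was -7.33 percentage points, and -4.99 without the 2 Oestrus heifers with 2-digit numbers. No p is given for this sum, because the members were chosen with results of these data known.

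**Figure D1:**
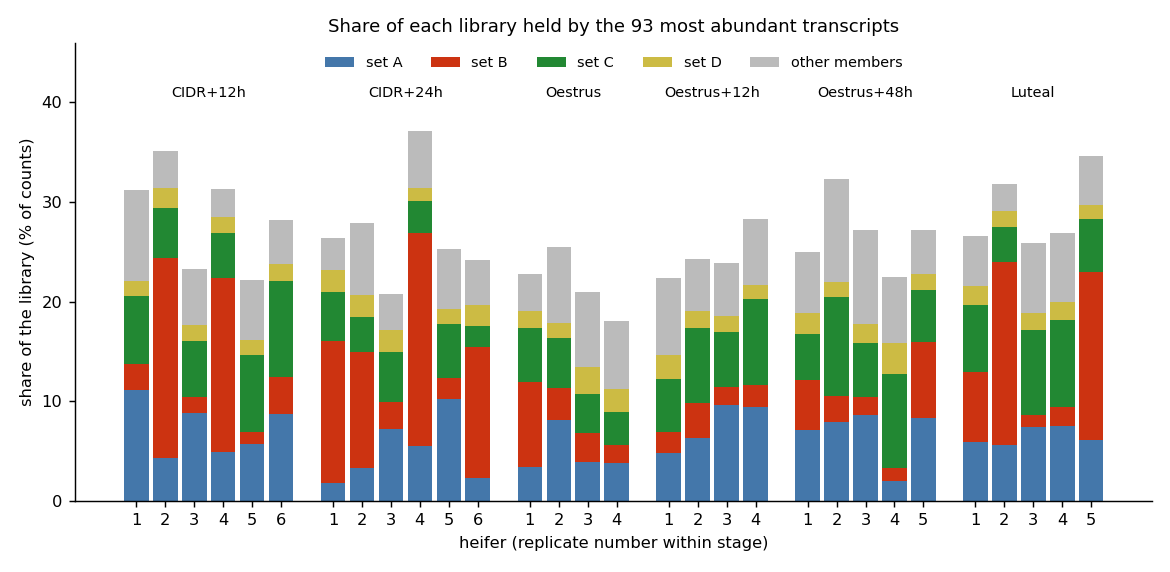
Each bar is 1 heifer, and its height is the percent of the library's counts in the 93 transcripts, split into 4 sets of members that varied together between heifers (A, 20 members; B, 18; C, 19; D, 11) and the other 25. The whole bars run from 18.02% to 37.1%, and set B alone runs from 1.15% to 21.4%.

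The list was short at the top and long at the bottom. Means of 10000 CPM or more were found for 4 members, of 5000 CPM or more for 13 and of 2000 CPM or more for 34. Just above the threshold were ENSBTAT00000000589 with a mean of 1005 CPM and ENSBTAT00000004560 with 1002 CPM, and just below it ENSBTAT00000036795 with 970 CPM and ENSBTAT00000010082 with 966 CPM. These 4 reached 1000 CPM in 13, 11, 11 and 13 heifers, so the threshold separates like transcripts. A median of 1000 CPM or more was found for 77 transcripts, all of them members.

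Few members were abundant in every heifer. Only 16 of the 93 stood at 1000 CPM or more in all 30 heifers, 20 did so in at most 15, and 156 other transcripts reached that level in at least 1 heifer. The ratio between the highest and the lowest heifer was 8.23 at the median member, 10 or more for 42 members and under 3 for 13. Its extremes were 2.12 for ENSBTAT00000023122 and 109 for ENSBTAT00000022979, which stood at place 4169 by CPM in Oestrus+48h replicate 5. When the rule was applied without each heifer in turn, it gave 89 to 93 members, and 82 of the 93 were members in every case.

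**Figure D2:**
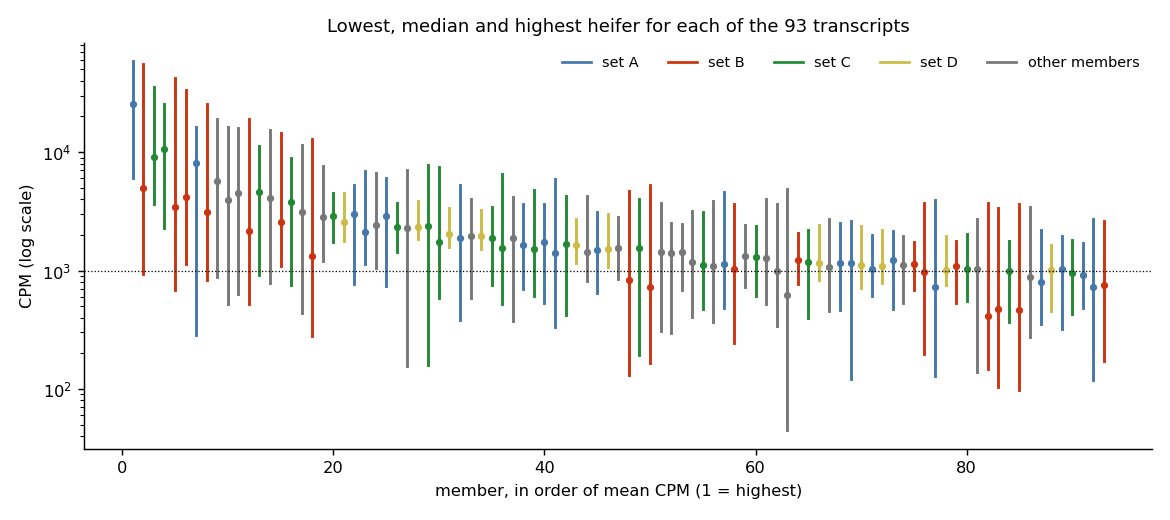
Each vertical line is 1 of the 93 transcripts in order of mean CPM, running from the lowest to the highest of the 30 heifers on a log scale, with a point at the median and a dotted line at 1000 CPM. Lines that stay above the dotted line belong to the 16 transcripts at 1000 CPM or more in every heifer.

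The transcript with the highest mean, ENSBTAT00000001704, held 27343 CPM on average and was the most abundant transcript in 21 of 30 heifers. At CIDR+12h it ranged from 15846 to 57953 CPM with a median of 32141, and at CIDR+24h from 6083 to 35184 CPM with a median of 20327. Its 4 values at Oestrus lay close together, at 20939, 25639, 24116 and 22422 CPM. At Oestrus+12h they were 32670, 26475, 39624 and 45646 CPM, all above the Oestrus heifers. At Oestrus+48h they were 27539, 32963, 30284, 6988 and 36607 CPM, and at Luteal 25466, 15291, 58629, 22173 and 19069 CPM. Apart from the gap between Oestrus and Oestrus+12h, which was noticed after the values were seen, neighbouring stages overlapped. Groups that did not overlap between Oestrus and Oestrus+12h in this direction were found for 2 of the 93 members (the other was ENSBTAT00000006297) and for 0.531% of all tested transcripts. In the opposite direction there was 1 member, ENSBTAT00000001034, against 2.16% of all tested transcripts. The difference between these stages was not among the tests. These gaps were counted on CPM without TMM factors, which averaged 1.19 at Oestrus and 1.06 at Oestrus+12h. The count was not repeated with them.

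The second transcript by mean, ENSBTAT00000017420, spread far more widely. Its mean was 13925 CPM but its median was 5017 CPM, and it was the most abundant transcript of the library in 8 heifers. The 6 heifers at CIDR+12h had a lowest value of 1458, a median of 5549 and a highest value of 41027 CPM, and those at CIDR+24h had 4625, 25199 and 55158 CPM. It was at 15434, 5957, 4338 and 2237 CPM in the Oestrus heifers and at 3526, 5272, 2972 and 3718 CPM in the Oestrus+12h heifers. In the Oestrus+48h heifers it was at 9392, 4325, 2894, 1535 and 15694 CPM, and in the Luteal heifers at 15026, 42657, 942, 2920 and 40824 CPM. The Luteal heifers thus held both the lowest value of the 30 and 2 of the highest.

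ENSBTAT00000034930, the fifth by mean at 9843 CPM, followed ENSBTAT00000017420 from heifer to heifer. Their CPM ratio had a mean of 1.43 and a coefficient of variation of 3.88% over the 30 heifers, within 1.31 to 1.56. The counts of these 2 IDs thus kept nearly the same ratio in every heifer, and sharing of reads between them was not tested.

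ENSBTAT00000007324 and ENSBTAT00000010897, the third and the fourth by mean, had 11762 and 10949 CPM. The first was at 17833, 7620, 7666 and 7470 CPM at Oestrus and at 9236, 15860, 8147, 35141 and 8423 CPM at Oestrus+48h, where replicate 4 was the only heifer with this transcript in first place. The second was at 9166, 7820, 4038 and 2517 CPM at Oestrus, 11536, 12102, 5838, 11938 and 16025 CPM at Luteal, and 9421 to 23629 CPM at CIDR+12h with a median of 12625. For this transcript the highest Oestrus heifer, at 9166 CPM, lay just below the lowest CIDR+12h heifer, at 9421 CPM. This was noticed after the values were seen, and this pair of stages was not among the tests. The share of all tested transcripts with such a gap was not computed. The lowest values at Oestrus, 4038 and 2517 CPM, came from the heifers with 2-digit numbers.

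**Figure D3:**
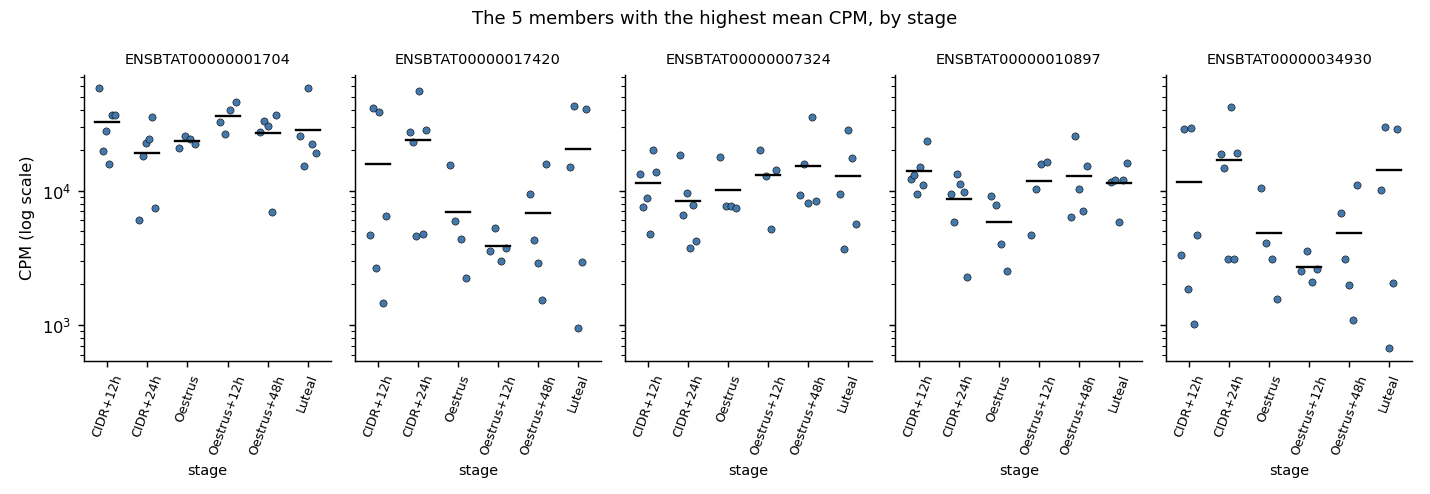
The CPM of the 5 members with the highest means is plotted on a log scale for each heifer (points) by stage, with the stage mean as a bar. ENSBTAT00000001704 stays between 20939 and 25639 CPM at Oestrus, while ENSBTAT00000017420 and ENSBTAT00000034930 show the same wide scatter at CIDR+12h, CIDR+24h and Luteal.

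No member differed between stages by the test used. In edgeR's quasi-likelihood test over the 6 stages, 0 of the 93 were called at an adjusted p under 0.05, where 0.23% of all 16940 tested transcripts were. The smallest adjusted p among the members was 0.376. At an unadjusted p under 0.05 there were 8 members (8.6%) against 10.9% of all tested, so the members were near the background in edgeR. Without the heifers with 2-digit numbers there were 5 (5.38%) against 8.56%, and with column totals 7 (7.53%) against 12.5%. DESeq2 called 0 members as well (1.72% of all tested). It gave 23 (24.7%) an unadjusted p under 0.05 against 16.4% of all tested, so there the members were above the background. The limma voom fit with sample quality weights called 21 members, against 22.9% of all tested transcripts. It gave 40 (43%) an unadjusted p under 0.05, against 46.1%. Over the 30 omissions of a single heifer, the edgeR count at an unadjusted p under 0.05 ran from 5 (without Oestrus replicate 4, for example, against 7.5% of all tested) to 19 (without CIDR+24h replicate 5, against 14.1%). It was 17 without CIDR+12h replicate 5, against 13.2%, and 12 without Oestrus replicate 2, against 12.7%. The members' share was above that of all tested transcripts in 10 of the 30 omissions and not above it in 20.

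The members nearest to a call in the 6-stage test were ENSBTAT00000009798 and ENSBTAT00000009800, which kept a CPM ratio of 1.13 with a coefficient of variation of 2.49% and so count as 1 signal. ENSBTAT00000009798 had 589 to 1565 CPM in the CIDR+24h heifers, with a median of 1146, and 811 to 4075 CPM in the CIDR+12h heifers, with a median of 3106. It was at 1803, 2078, 1583 and 1445 CPM at Oestrus, at 1625, 2590, 1703 and 3666 CPM at Oestrus+12h, and at 1837, 2727, 2306, 3427 and 1489 CPM at Oestrus+48h. The Luteal heifers had 3732, 1247, 7545, 2419 and 1188 CPM. Its values were thus lowest as a group at CIDR+24h, and they overlapped with those of 4 other stages. The highest CIDR+24h heifer, at 1565 CPM, lay just below the lowest Oestrus+12h heifer, at 1625 CPM. That pair of stages was not tested, and the share of all tested transcripts with such a gap was not computed. The log2 difference of Oestrus from the mean of the other stages was -0.57. Leaving out the heifers with 2-digit numbers gave -0.30, and column totals gave -0.35. The edgeR adjusted p of the 6-stage test was 0.376, and it ranged from 0.0233 with voom weights to 0.645 over the other settings. That p covers differences among all 6 stages and does not belong to the difference of Oestrus from the others.

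The Oestrus heifers were next set against the Luteal heifers, the stages nearest to high oestrogen and high progesterone in a normal cycle. No hormone was measured here. In this comparison edgeR called 0 of the 93 members and 0% of all tested transcripts, with 10 members (10.8%) against 7.24% of all at an unadjusted p under 0.05. All 10 were lower at Oestrus, and 7 of them belong to set C, described below. With column totals in place of TMM factors there were 5 (5.38%), 2 higher and 3 lower, against 12.5% of all tested, and 1 was in set C. Among the 7 in set C with TMM factors, ENSBTAT00000009798 and ENSBTAT00000009800 correlated at r = 0.9991, and ENSBTAT00000018869 and ENSBTAT00000052879 at r = 0.998. The 7, and so the 10, are therefore not all separate signals. The median log2 difference of the 93 members was -0.35 against -0.01 over all tested transcripts, and 75 of the 93 had a negative value. Column totals moved the median of all tested transcripts to 0.29 and that of the members to -0.06, with 53 of 93 negative. Relative to all tested transcripts the members' median was -0.34 with TMM factors, -0.35 with column totals and -0.31 when the heifers with 2-digit numbers were left out. Single heifers decided the unadjusted count: it was 0 without Oestrus replicate 4, against 2.86% of all tested, and 21 without Oestrus replicate 2, against 14.3%. It was 1 without Oestrus replicate 3, against 4.77%, and 15 without Luteal replicate 3, against 13.8%. Leaving out Luteal replicate 4 gave 6, against 5.47%. Without the heifers with 2-digit numbers it was 1, against 1.57%, with none of set C. In all 30 omissions of a single heifer, edgeR called 0 members. DESeq2 called 0 members against 0.0649% of all tested, with 19 (20.4%) at an unadjusted p under 0.05 against 8.99%. The voom fit called 4 members, against 2.49%, and gave 33 (35.5%) an unadjusted p under 0.05, against 25% of all tested.

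By name, ENSBTAT00000009798 differed by -1.08 ± 0.468 on the log2 scale between Oestrus and Luteal (± SE; the adjusted p from edgeR was 0.654). ENSBTAT00000023608 had the smallest p among members with a higher value at Oestrus in this comparison. It stood at 1329, 1498, 2244 and 2414 CPM at Oestrus and at 1447, 731, 1357, 1475 and 1011 CPM at Luteal. On the log2 scale it differed by 0.33 ± 0.213 (± SE; the adjusted p from edgeR was 0.74). Without the heifers with 2-digit numbers this difference was 0.08 (adjusted p from edgeR of 1), and with column totals it was 0.64 (0.389). The 2 Oestrus heifers above all Luteal heifers by a wide margin were those with 2-digit numbers, while replicate 1 overlapped with the Luteal heifers.

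Between Oestrus and CIDR+24h, edgeR again called 0 of the 93 members and 0% of all tested transcripts. An unadjusted p under 0.05 was found for 3 members (3.23%), all lower at Oestrus, against 19.3% of all tested. With column totals there were 5 (5.38%), 4 higher and 1 lower, against 21% of all tested. The members' share was not above that of all tested transcripts in any of the 30 omissions of a heifer. The median log2 difference was -0.21 for the members and -0.07 for all tested, and 62 of 93 were negative. With column totals it was 0.04 and 0.18, with 42 of 93 negative. Relative to all tested transcripts the members' median was -0.14 under both scalings and -0.04 when the heifers with 2-digit numbers were left out. The count at an unadjusted p under 0.05 was 0 without Oestrus replicate 4, against 9.1% of all tested, and also 0 when the heifers with 2-digit numbers were left out, against 8.52%. It was 14 without Oestrus replicate 2, against 22.9%, and 12 without Oestrus replicate 1, against 19.4%. Omissions of CIDR+24h replicate 3 and replicate 5 gave 11 and 10, against 20.3% and 20.4%. DESeq2 called 0 members against 0.702% of all tested, with 14 (15.1%) at an unadjusted p under 0.05 against 22.5%. The voom fit called 7 members, against 13%, and gave 18 (19.4%) an unadjusted p under 0.05, against 32.6%. ENSBTAT00000006980 was the member with the smallest p among those higher at Oestrus. It had 194 to 1460 CPM with a median of 525 at CIDR+24h and 1133, 2221, 1214 and 1479 CPM at Oestrus, which is 0.97 ± 0.5 on the log2 scale (± SE; the adjusted p from edgeR was 0.276). The difference was 0.56 without Oestrus replicate 2, 1.24 without those with 2-digit numbers and 1.51 with voom weights. With voom weights its adjusted p was 0.0335, and over all settings it lay between that value and 0.592. Of all members it had the largest part of its variance between stages, 49.6%, a share not corrected for the number of stages fitted.

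Both pairwise comparisons share the 4 Oestrus heifers. Groups that did not overlap in CPM were found for 0 members in either direction in both. Among all tested transcripts, every Oestrus heifer lay above every Luteal heifer in 1.91% and below in 0.207%. Every Oestrus heifer lay above every CIDR+24h heifer in 5.6% and below in 0.189%. These counts used CPM without TMM factors. On that scale the median log2 difference of all tested transcripts was 0.29 against Luteal and 0.18 against CIDR+24h. With TMM factors it was -0.01 and -0.07, and the counts were not repeated with them.

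The spread within stages was larger at the median member than at the median of each lower range of abundance examined, down to 1 CPM. It was most closely approached by the range from 1 to 10 CPM, and tested transcripts under 1 CPM were not summarised as a range. For these SDs, log2 CPM was scaled with the TMM factors, while values printed as CPM were not. The SD between heifers of a stage was 0.82 at the median member and 0.48 at the median of 1721 tested transcripts from 100 to 1000 CPM. It was 0.43 at the median of 8919 from 10 to 100 CPM. It was 0.71 at the median of 5560 from 1 to 10 CPM, of which 22.5% had an SD of 1 or more. Over all 16940 tested it was 0.54. An SD of 1 or more was found for 37 members (39.8%) and 14.9% of all tested. A mean is raised by a few high heifers, so the rule itself favours transcripts with a wide spread. The 16 members whose median lay under 1000 CPM had a median SD of 1.24, and the 77 with a median of 1000 CPM or more had 0.78. Stage accounted for 19.7% of the variance of the median member and 19.8% of that of the median tested transcript. These shares were not corrected for fitting 6 stage means to 30 heifers, which alone gives a share above 0. They are therefore not a measure of a stage effect.

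**Figure D4:**
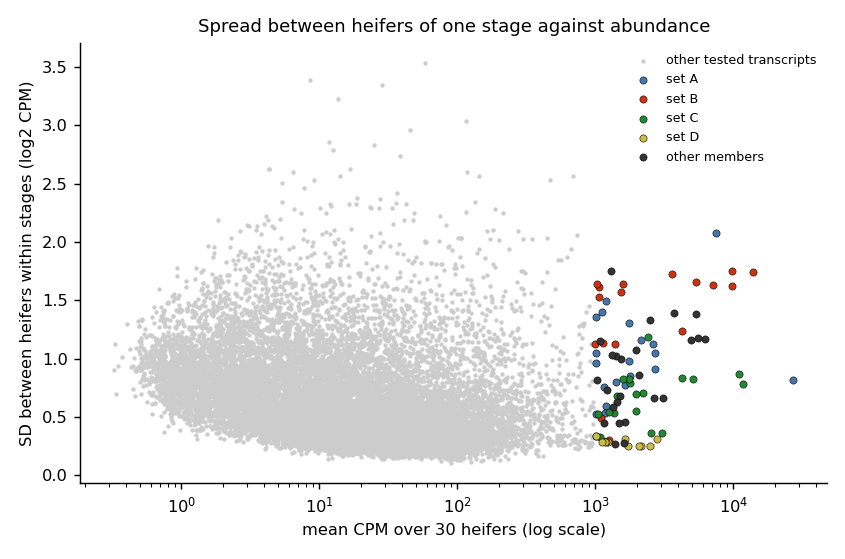
For each tested transcript, the SD of TMM-scaled log2 CPM between heifers within stages is plotted against the mean CPM on a log scale. Colours of the members give the set. Members span SDs from 0.249 to 2.07, with set B mostly near the top and set D at the bottom.

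The widest spread among the members was that of ENSBTAT00000033841, the member with the seventh highest mean, with an SD of 2.07. At Oestrus it was at 525, 12264, 627 and 915 CPM, and at Oestrus+12h at 461, 7466, 12938 and 13175 CPM. It was at 8814, 11623, 11574, 664 and 10328 CPM at Oestrus+48h and at 6061, 9784, 1972, 14967 and 9298 CPM at Luteal. The CIDR+24h heifers ran from 287 to 15903 CPM and the CIDR+12h heifers from 2898 to 16359 CPM. At Oestrus 3 of 4 heifers were low and 1 was high, while at Oestrus+12h and Oestrus+48h 1 heifer was low and the others were high. At CIDR+24h 3 of 6 were low, and the Luteal and CIDR+12h heifers spread less. ENSBTAT00000022979 came next with an SD of 1.75, and it was at 1148, 313, 268, 4876 and 44.7 CPM at Oestrus+48h.

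The steadiest members were ENSBTAT00000026183 and ENSBTAT00000023122, each with an SD of 0.25 on the TMM scale. Their CPM values given here are not on that scale. ENSBTAT00000026183 was at 1708, 1543, 2559 and 2185 CPM at Oestrus and at 1671, 1424, 1995, 1724 and 1234 CPM at Luteal. ENSBTAT00000023122 was at 1702, 1634, 3215 and 2681 CPM at Oestrus and at 2149, 1693, 1716, 2027 and 1519 CPM at Luteal. In both, the highest Oestrus values came from the heifers with 2-digit numbers, and the other Oestrus heifers lay inside the Luteal range.

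Members varied together in sets. They were grouped by the correlation of TMM-scaled log2 CPM over the 30 heifers. Average linkage at a distance of at most 0.5, with sets of at least 10 members, gave 4 sets with 68 of the 93 members. The sets are called A to D here in the order of their leading transcripts. The grouping was made after the values were seen, all values come from the same 30 libraries, and the sets are descriptions without a test. Members of a set were grouped because they vary together. A count of its members with the same sign, or of pairs between sets, is therefore not a count of separate results. The first 2 principal components held 41.8% and 27.6% of the variance of the members, against 26.2% and 22.1% for all tested transcripts.

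Set B held 18 members led by ENSBTAT00000017420, among them 4 of the 10 highest. Its summed share of the library ran from 1.15% in Luteal replicate 3 to 21.4% in CIDR+24h replicate 4, an 18.6-fold range. At CIDR+12h the 6 heifers had 2.63%, 20.1%, 1.66%, 17.4%, 1.21% and 3.72%, and at CIDR+24h 14.2%, 11.7%, 2.65%, 21.4%, 2.18% and 13.2%. Oestrus heifers had 8.55%, 3.22%, 2.89% and 1.73%, and Oestrus+12h heifers 2.10%, 3.45%, 1.84% and 2.22%. Oestrus+48h heifers had 5.05%, 2.55%, 1.77%, 1.32% and 7.68%, and Luteal heifers 7.06%, 18.3%, 1.15%, 1.94% and 16.9%. A share over 10% was found in 8 heifers, 2 at CIDR+12h, 4 at CIDR+24h and 2 at Luteal, and the next lower heifer had 8.55%. In the same 8 heifers ENSBTAT00000017420 was the most abundant transcript. No Oestrus, Oestrus+12h or Oestrus+48h heifer was among them, and whether stage accounts for this was not tested for the set. For single transcripts of set B, edgeR called 0 in each of the 3 tests.

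The members of set B correlated with a median r of 0.85 over the 30 heifers, and of 0.86 after stage means were removed. Of the 18, 15 had an SD within stages of 1.12 or more. The other 3, ENSBTAT00000037527, ENSBTAT00000001034 and ENSBTAT00000013737, had 0.30, 0.29 and 0.49. Their median correlation with those 15 was 0.57, 0.55 and 0.71, and ENSBTAT00000037527 and ENSBTAT00000001034 had their highest stage mean at Oestrus, so these 3 followed the set only loosely. Set B carried much of the difference in total share between Oestrus and Luteal. Without its members the difference was -2.36 percentage points instead of -7.33, and the remaining share of 14.3% to 22.3% in the Oestrus heifers overlapped with 13.4% to 24.998% in the Luteal heifers. All 18 had a negative log2 difference between Oestrus and Luteal, with a median of -1.43. With column totals 13 of 18 were negative with a median of -0.98, and without the heifers with 2-digit numbers 13 of 18 with a median of -0.83. Relative to all tested transcripts the 3 medians were -1.42, -1.27 and -0.84.

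Set A held 20 members led by ENSBTAT00000001704, with 6.33 ± 2.53% of a library (SD, n = 30) and a median r of 0.72. Its lowest share was 1.82% in CIDR+24h replicate 1 and its highest 11.1% in CIDR+12h replicate 1. The Oestrus heifers had 3.38%, 8.15%, 3.93% and 3.83%, so replicate 2 stood apart. The Luteal heifers had 5.87%, 5.63%, 7.42%, 7.48% and 6.11%. Between Oestrus and Luteal 19 of 20 had a negative log2 difference with a median of -0.55, and without the heifers with 2-digit numbers 10 of 20 with a median of -0.01. The transcripts most like ENSBTAT00000001704 among the members were ENSBTAT00000011877 (r = 0.70, rho = 0.70 over 30 heifers), ENSBTAT00000033841 (r = 0.67, rho = 0.63) and ENSBTAT00000017715 (r = 0.66, rho = 0.64). The last of these belongs to set C. Even the highest of these r lies under the median r of set A, so the leading transcript followed its set only loosely.

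Set C held 19 members led by ENSBTAT00000007324, with 5.86 ± 2.07% of a library (SD, n = 30). Stage accounted for 32.5% of the variance of its median member, against 19.8% for all tested transcripts. As above, such a share is not a measure of a stage effect, and the members of a set are not separate results. The CIDR+24h heifers had 4.94%, 3.47%, 5.04%, 3.22%, 5.39% and 2.14%, and the Oestrus heifers 5.43%, 5.01%, 3.87% and 3.34%. The Oestrus+12h heifers had 5.39%, 7.55%, 5.52% and 8.64%, near or above the highest values of those stages. The Luteal heifers had 6.69%, 3.55%, 8.55%, 8.77% and 5.28%, the Oestrus+48h heifers 4.61%, 9.96%, 5.47%, 9.39% and 5.22%, and the CIDR+12h heifers 4.60% to 9.61% with a median of 6.19%. Between Oestrus and Luteal all 19 had a negative log2 difference with a median of -0.59. With column totals 17 of 19 were negative with a median of -0.35, and without the heifers with 2-digit numbers 18 of 19 with a median of -0.46. Relative to all tested transcripts the 3 medians were -0.58, -0.64 and -0.47. None of the 19 was called by edgeR.

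Sets B and C ran against each other. Of the 342 pairs with 1 member in each, 323 had a correlation below 0, with a median r of -0.37. Sets A and B had a median r of -0.0019 and sets A and C of 0.34.

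Set D held 11 members led by ENSBTAT00000005581 and varied least. Its share was 1.86 ± 0.423% of a library (SD, n = 30), from 1.33% in CIDR+24h replicate 4 to 3.11% in Oestrus+48h replicate 4. The median SD within stages was 0.28, under that of the median tested transcript, and 6 of the 11 were among the 16 transcripts at 1000 CPM or more in all heifers. Between Oestrus and Luteal the median log2 difference of set D relative to all tested transcripts was 0.01 with TMM factors and 0.02 with column totals. It was -0.27 without the heifers with 2-digit numbers, where 11 of 11 were negative, against 6 of 11 with TMM factors and all heifers and 0 of 11 with column totals.

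**Figure D5:**
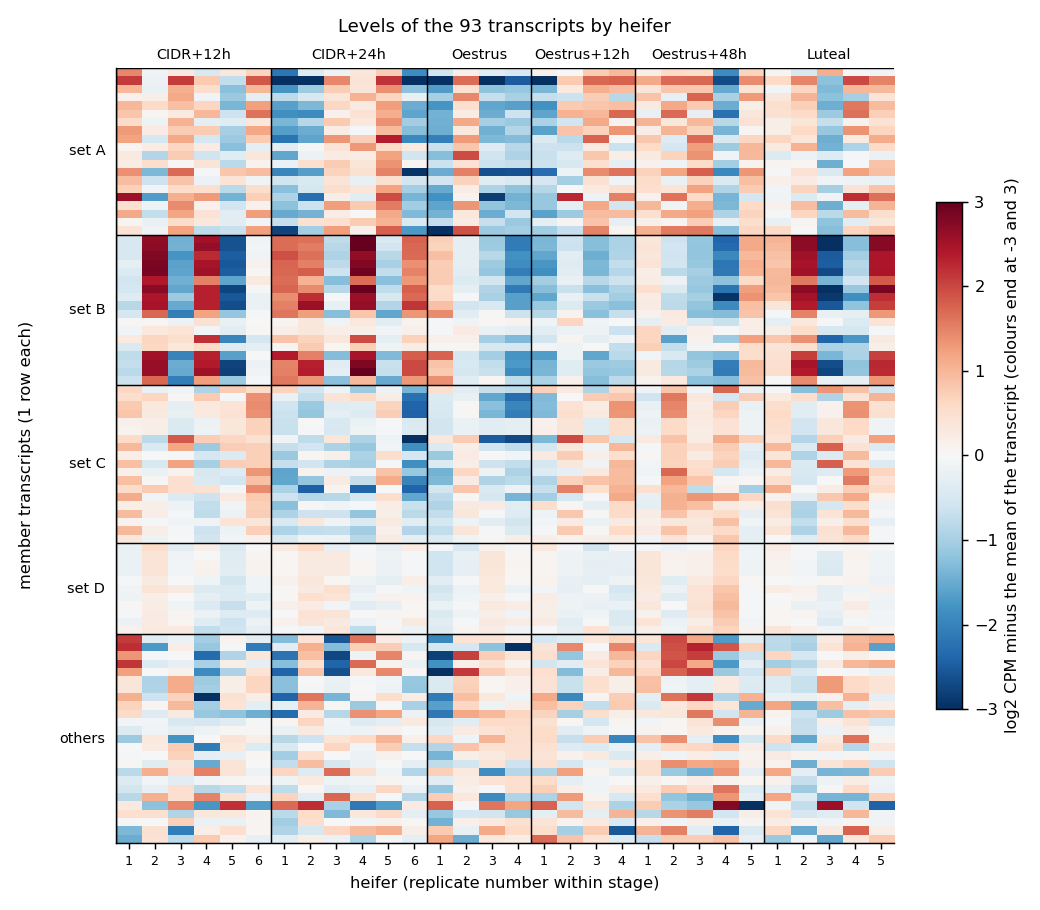
Rows are the 93 transcripts grouped by set and columns the 30 heifers by stage. Colour gives the TMM-scaled log2 CPM minus the transcript's own mean (red higher, blue lower). Set B is red in CIDR+12h replicates 2 and 4, CIDR+24h replicates 1, 2, 4 and 6 and Luteal replicates 2 and 5, while set D is pale throughout.

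Some members moved so closely that they may not be separate measurements. A correlation over 0.99 was found for 32 of the 4278 pairs of members, and these pairs involved 36 of the 93. The most correlated pair, ENSBTAT00000026377 and ENSBTAT00000054718, had a CPM ratio of 1.16 with a coefficient of variation of 0.951%. The CPM ratio of ENSBTAT00000055086 to ENSBTAT00000023122 was 1.05 and had a coefficient of variation of 0.865%, the lowest of the 32. No 2 members had equal counts in all 30 heifers. Counts were given per transcript, and the sources used here do not say how reads that match several IDs were counted, and sharing of reads between members was not tested.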

How the data were processed

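Polyadenylated RNA of cervical tissue was sequenced as single reads, per the labels' protocols. The submitters' processing notes name CASAVA 1.0. For aligner, counting program, build, annotation and strand: not given in the sources used here. Files hold whole-number counts for each Ensembl transcript ID, as the authors deposited them. CPM was the count divided by the library total, and members needed a mean of 1000 CPM. Members and lists were chosen with earlier results of these data known. The gene lists and markers could not be applied, since no ID matched a name, and the planned permutation test of the summed share is not reported.

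Tests used edgeR 4.0.16 in R 4.3.3 on the 16940 transcripts kept by filterByExpr (minimum count 10, minimum total 15), with TMM factors, 1 mean per stage and Benjamini-Hochberg adjustment over all 16940. All 93 members passed the filter. Log2 CPM was scaled with the TMM factors and used a prior count of 2. The SDs within stages, correlations, sets, principal components and shares of variance were computed on it. CPM values of heifers, CPM ratios and shares of a library were not scaled with TMM factors. Alternatives were DESeq2 1.42.0, limma 3.58.1 voom with quality weights, other scalings and filters, and omitted heifers. The named transcripts were the 5 highest means, the 2 widest and the 2 narrowest spreads within stages, up to 2 higher and 2 lower at Oestrus by smallest p, the 4 nearest the threshold and the 3 most like the highest. Leaders of sets, tight pairs and 3 members of set B were named after their values were seen. Replicates are separate heifers, numbered in accession order, and all pairs of libraries within stages differed by more than sampling noise (smallest chi-square per degree of freedom 19.3).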

Additional observations from a re-analysis of the deposited data

Results flagged for a closer look

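These are single heifers whose value was far from the rest of their stage, judged by the distance to the nearest other heifer as a part of the whole range. The check was made for 144 combinations of a measure and a stage and found 16, where the nominal chance rate of the rule is about 1 in 20. That rate depends on how the values are distributed, and the values found are CPM, shares and totals not put on a log scale. The 16 can therefore not be read as an excess. Several of them come from the same heifer and from transcripts that varied together, so they are not separate.

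Oestrus+48h replicate 4 gave 5 of the values. It was high for ENSBTAT00000007324 (35141 CPM against 8147 to 15860 in the other Oestrus+48h heifers), ENSBTAT00000022979 (4876 CPM against 44.7 to 1148) and ENSBTAT00000005581 (4509 CPM against 2147 to 2618). It was low for ENSBTAT00000033841 (664 CPM against 8814 to 11623) and for the summed share of set A (2.02% against 7.07% to 8.63%).

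Oestrus replicate 2 gave 4 high values, all in set A: the share of the set (8.15% against 3.38% to 3.93%), ENSBTAT00000033841 (12264 CPM against 525 to 915), ENSBTAT00000011877 (2276 CPM against 167 to 378) and ENSBTAT00000000589 (2710 CPM against 119 to 474).

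Luteal replicate 3 was high for ENSBTAT00000001704 (58629 CPM against 15291 to 25466) and for ENSBTAT00000022979 (4580 CPM against 103 to 615). Oestrus+12h replicate 1 was high for ENSBTAT00000023608 (2390 CPM against 1171 to 1268) and low for ENSBTAT00000017715 (985 CPM against 2653 to 2858). Oestrus replicate 1 had 17833 CPM of ENSBTAT00000007324, against 7470 to 7666. CIDR+12h replicate 6 had 3299 CPM of ENSBTAT00000006980, against 1508 to 1966, and the largest library of its stage, with 19628122 counts against 8819190 to 11075868.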

How the results depend on the processing

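The count of members called was 0 in each of the 3 edgeR tests and stayed 0 in 36 of 37 alternatives for each test, including DESeq2 and every omission of a heifer (lowest 0 and highest 0). The exception was voom with sample quality weights, with 21 members in the 6-stage test, 4 for Oestrus against Luteal and 7 for Oestrus against CIDR+24h; the cause was not tested. The mean summed share of 26.6% was 10.997% for the 10 highest members and 18.7% for means of 2000 CPM or more, since fewer transcripts enter these sums, and 26.3% to 26.9% over omissions of single heifers. Its difference between Oestrus and Luteal was -8.56 to -5.98 percentage points over such omissions. Set B had 14 members at a distance limit of 0.3, 20 at 0.7, 18 with Spearman correlations or with stage means removed and 15 without TMM factors. These settings, the omission of set B and the rule on the TMM scale (94 transcripts, all 93 members among them) were chosen after seeing the data. No paired analysis was possible because the replicate numbers were given in accession order and carry no pairing.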
